A study of Mus musculus with 4 samples.

Results

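The genes of interleukin-1 signalling and of the NF-kB pathway described here were followed in leukocytes of the mouse left ventricle: Il1b, Il1a, Il1rn, Il1r2, Nlrp3, Tnf, Tnfaip3, Nfkbia, Cxcl2 and Ptgs2. They were taken by symbol from the feature lists of both matrices, 1 feature each, and are 10 of 31053 genes. The hearts came from C57Bl6J mice, either sham controls or mice given DOCA-salt, a regimen of deoxycorticosterone acetate and salt that raises blood pressure. Ventricles were perfused with PBS, minced and digested with Liberase TM, CD45+ cells were enriched on beads, stained with hashtag and surface antibodies and sorted alive, and 5' single-cell libraries were made. Each of 4 hashtags was taken as 1 mouse, so that there were 4 sham and 4 DOCA-salt mice. All mice of a group were pooled into 1 library, and a difference between groups therefore cannot be told apart from a difference between libraries. The labels give no age or sex of the mice and no time of treatment.

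After filtering there were 4080 sham and 6864 DOCA-salt cells assigned to a mouse, with 624 to 1281 cells in a sham mouse and 764 to 2172 in one given DOCA-salt. Summed over a mouse's cells, the depth was 1782050 to 4065978 UMIs (unique molecular identifiers, each marking 1 captured RNA molecule) in sham and 2708758 to 9048096 in DOCA-salt mice. The libraries shared 41 cell barcodes. Cells were clustered, and classes were called "-like" from marker genes. Macrophage-like cells numbered 291 and 684 (sham and DOCA-salt), nonclassical monocyte-like cells 110 and 121, classical monocyte-like cells 26 and 136, NK-like cells 541 and 1252, T-like ones 439 and 975, and B-like cells 2010 and 2652. Neutrophil-like cells were few, with 7, 3, 1 and 2 cells in the sham mice and 12, 53, 35 and 54 in the DOCA-salt mice. Levels are given in CPM, in which a gene's UMIs are divided by all UMIs of that class and mouse and scaled to a fixed total, as mean ± SD over mice.

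Interleukin-1 is an alarm cytokine of injured and infected tissue. Its beta form (Il1b) is made as an inactive precursor that caspase-1 cuts in the inflammasome, a complex nucleated by the sensor Nlrp3, whereas the alpha form (Il1a) is active before it is cut. Both bind the same receptor, which the antagonist Il1rn blocks, while the decoy receptor Il1r2 binds the cytokine without signalling. Receptors for IL-1 and for TNF release NF-kB from its cytoplasmic inhibitor IkB-alpha (Nfkbia), and NF-kB then induces, among others, Il1b, Tnf, the neutrophil-attracting chemokine Cxcl2 and the prostaglandin-forming enzyme cyclooxygenase-2 (Ptgs2). It also induces Nfkbia itself and the deubiquitinating enzyme A20 (Tnfaip3), which end the response, so both are inhibitors and targets of the pathway.

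In the mm10 build (GRCm38), all 10 are protein-coding genes. Il1b lies at chr2:129364570-129371139 on the reverse strand, beside Il1a at chr2:129299610-129309972, also reverse. Il1rn is at chr2:24336853-24351494 (forward) and Il1r2 at chr1:40074079-40125231 (forward). Nlrp3 is at chr11:59541568-59566956 (forward) and Tnf at chr17:35199381-35202007 (reverse). Tnfaip3 is at chr10:19000910-19015657 (reverse) and Nfkbia at chr12:55489410-55492647 (reverse). Cxcl2 is at chr5:90903871-90905938 (forward) and Ptgs2 at chr1:150100031-150108227 (forward).

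RefSeq promoter windows (GRCm38.p6, from 250 bases before a RefSeq start to 50 after it) were found for all 10 genes, 14 windows in all. They were searched on both strands for the kappa-B consensus, the 10-base motif that NF-kB subunits bind. It was present in 4 windows, which belong to Nlrp3, Tnfaip3, Nfkbia and Cxcl2, so 4 of 10 genes held it in at least 1 window. Across the reference, 8.46% of 32851 windows and 9.55% of 27025 genes held it. The windows of Nfkbia (chr12:55492598-55492897, reverse strand), Tnfaip3 (chr10:19015361-19015660, reverse) and Cxcl2 (chr5:90903649-90903948, forward) are shown because they carry the motif in the pathway's inhibitors and in its chemokine. The Il1b window (chr2:129371090-129371389, reverse) is shown beside them as one without a match. Each is printed 5′ to 3′ on the gene's own strand, and capitals mark the matching bases.
Nfkbia: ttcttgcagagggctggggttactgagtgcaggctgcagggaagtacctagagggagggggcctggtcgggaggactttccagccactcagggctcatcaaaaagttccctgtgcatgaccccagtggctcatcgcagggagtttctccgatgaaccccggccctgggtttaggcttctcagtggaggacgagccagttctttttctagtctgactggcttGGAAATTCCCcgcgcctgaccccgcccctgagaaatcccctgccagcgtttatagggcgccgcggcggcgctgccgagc
Tnfaip3: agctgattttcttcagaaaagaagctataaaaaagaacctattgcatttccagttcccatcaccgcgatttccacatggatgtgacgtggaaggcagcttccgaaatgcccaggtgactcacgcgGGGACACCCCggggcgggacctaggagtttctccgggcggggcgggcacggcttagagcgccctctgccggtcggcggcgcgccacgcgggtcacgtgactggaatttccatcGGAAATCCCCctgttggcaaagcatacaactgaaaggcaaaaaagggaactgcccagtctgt
Cxcl2: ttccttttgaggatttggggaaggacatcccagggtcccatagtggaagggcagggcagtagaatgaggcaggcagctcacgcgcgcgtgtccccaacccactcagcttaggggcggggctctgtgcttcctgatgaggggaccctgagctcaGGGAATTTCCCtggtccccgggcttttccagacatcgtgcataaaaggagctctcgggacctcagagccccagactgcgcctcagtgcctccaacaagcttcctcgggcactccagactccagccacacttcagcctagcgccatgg
Il1b: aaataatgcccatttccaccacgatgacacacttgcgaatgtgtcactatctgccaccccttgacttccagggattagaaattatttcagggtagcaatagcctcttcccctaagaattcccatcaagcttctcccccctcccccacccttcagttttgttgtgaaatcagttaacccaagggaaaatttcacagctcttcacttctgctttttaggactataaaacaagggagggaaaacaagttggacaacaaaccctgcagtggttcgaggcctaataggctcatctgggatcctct
Distances are counted from the RefSeq start of each window, which can differ from the end of the gene span given above. The Nfkbia match began 29 bases before that start, and the Tnfaip3 matches 125 and 12 bases before theirs. The RefSeq start used for Tnfaip3 lies inside its gene span, and so do both matches. In Cxcl2, matches on overlapping positions began 97 and 96 bases before the start. In Nlrp3, whose window is not printed, the match GGGAACCCCC began 186 bases before the start. A match is a description of the letters, and no match in the Il1b window says only that these letters are not within it.

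Some of the genes, but not all, also share a feature of their messages. AU-rich repeats in 3' untranslated regions mark short-lived RNAs, and the nonamer TTATTTATT, their core, was present in the longest annotated 3' untranslated region of 5 of the 10 genes, against 7.65% of 21045 genes. Tnf held it 5 times, Cxcl2 4 times, and Tnfaip3, Nfkbia and Ptgs2 each held it 1 time. At least 3 copies of the pentamer ATTTA were present in 7 of the 10, against 35.6% of genes, with 14 in Ptgs2 and 11 in Cxcl2. These counts are not scaled to length, and the regions of Ptgs2 and Cxcl2 had 2445 and 1494 bases, against a median of 960. Per kilobase they held 5.73 and 7.36 pentamers, against a median of 1.24 over genes. Il1rn and Il1r2, the antagonist and the decoy, held none, and the annotated region of Il1r2 was only 24 bases long.

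Il1b was concentrated in neutrophil-like cells, at a level far above every other class. Its level there was 11330, 7958, 14490 and 10300 CPM in the sham mice and 9282, 8422, 11200 and 9257 CPM in the DOCA-salt mice. At least 1 Il1b UMI was found in 13 of 13 sham neutrophil-like cells and in 150 of 154 DOCA-salt ones (97.4%, 95% Clopper-Pearson interval 93.5 to 99.3). The next levels came in monocyte-like and macrophage-like cells, which overlapped one another over mice. In sham mice these were 386 ± 200 CPM in macrophage-like cells, 306 ± 176 in nonclassical and 131 ± 116 in classical monocyte-like cells (SD, n = 4). In DOCA-salt mice the order was nonclassical (457 ± 200), classical (347 ± 206), macrophage-like (144 ± 95.03) and cDC2-like cells (115 ± 104), and neighbours in that order did not differ beyond their spread. Lymphocytes lay much lower, at 2.45 ± 2.04 and 3.76 ± 1.58 CPM in the NK-like class, 4.54 ± 6.10 and 4.44 ± 2.37 in the T-like class and 3.80 ± 1.19 and 6.13 ± 0.637 in B-like cells (sham and DOCA-salt, SD, n = 4).

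**Figure D1:**
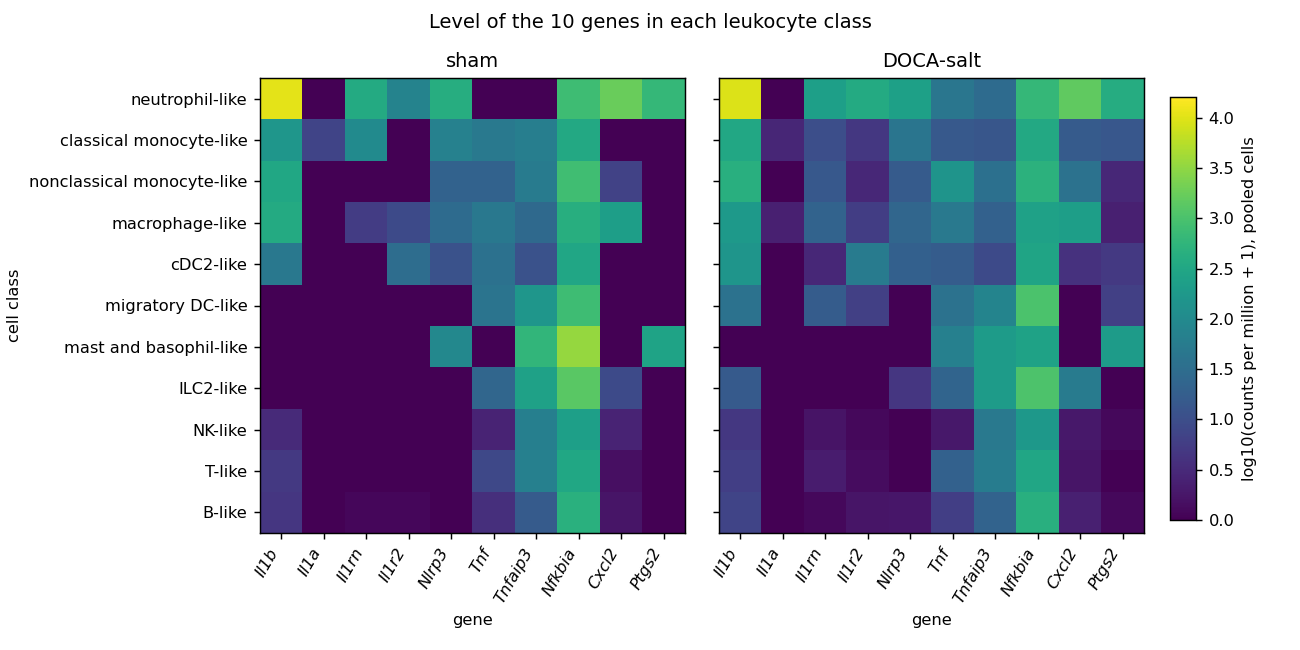
Levels of the 10 genes in each leukocyte class, as log10 of CPM + 1 with the cells of a group pooled, for sham and DOCA-salt. Neutrophil-like cells stand out for Il1b, Cxcl2, Ptgs2 and Nlrp3, and Nfkbia was present in every class. Pooled Tnfaip3 is highest in ILC2-like cells and in the few mast and basophil-like cells (6 sham and 4 DOCA-salt cells).

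Free RNA in the droplets can add UMIs to a cell, so the low lymphocyte values are given with their shares of cells. In NK-like cells 4 of 541 sham cells (0.739%) and 16 of 1252 DOCA-salt cells (1.28%) had an Il1b UMI, at median depths of 3231 and 3364 UMIs. In B-like cells the shares were 0.945% and 1.96%, at 2704.5 and 3005.5 UMIs, so the NK share was no higher than that of B-like cells. In T-like cells they were 1.82% and 2.77%, at 4269 and 5445 UMIs. Whether any of these shares is background was not tested. Neutrophil RNA was higher in the B-like and NK-like cells of DOCA-salt mice. The summed level of the 9 neutrophil markers, all 9 of them detected, was 5.55 to 9.87 CPM in B-like cells of sham mice and 42.2 to 67.2 CPM in those of DOCA-salt mice. In NK-like cells, where 8 of the 9 were detected, all sham mice, the lowest at 24.8 CPM, lay below the 68.2 to 84.9 CPM of the DOCA-salt mice. In T-like cells, where 8 of the 9 were also detected, the level was 8.99 to 58.4 CPM in sham and 26.4 to 39.5 CPM in DOCA-salt mice. The groups overlapped there. The part of neutrophil RNA in the Il1b values of these classes was not tested.

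The other genes each had their own pattern over classes. By means over mice, Cxcl2, Ptgs2, Nlrp3, Il1rn and Il1r2 were highest in neutrophil-like cells in both groups, where the sham means rest on 13 cells. Cxcl2 was at 1311 ± 1249 CPM there in sham hearts and at 1841 ± 1233 CPM in DOCA-salt hearts, and Il1r2 at 85.2 ± 99.6 and 357 ± 47.3 CPM (SD, n = 4). The means of Ptgs2 (765 ± 646 and 332 ± 185 CPM), Nlrp3 (378 ± 316 and 272 ± 104 CPM) and Il1rn (245 ± 284 and 203 ± 93.8 CPM) were higher in the sham mice, within their spread. Cxcl2 was otherwise found mainly in macrophage-like cells, at 276 ± 327 CPM in sham hearts and 226 ± 55.4 CPM in DOCA-salt hearts, in 8.59% and 8.19% of their cells. Ptgs2 had no UMI in macrophage-like cells of sham mice (0 of 291 cells, which allows a share of up to 1.03%) and was found in 2 of 684 cells of DOCA-salt mice. Outside neutrophil-like cells Ptgs2 was found mainly in classical monocyte-like cells of DOCA-salt mice (8 of 136 cells) and among mast and basophil-like cells (2 of 6 sham and 1 of 4 DOCA-salt cells). Nlrp3 was next highest in classical monocyte-like cells, at 85.01 ± 51.0 and 44.6 ± 15.97 CPM, and had no UMI in NK-like or T-like cells of either group. Il1a was close to absent, with 1 UMI in all sham cells and 6 in all DOCA-salt cells, every one of them in a macrophage-like or classical monocyte-like cell. Tnf was spread over macrophage-like cells (54.2 ± 33.3 and 44.1 ± 11.5 CPM), T-like cells (7.91 ± 4.44 and 16.9 ± 11.1 CPM) and monocyte-like cells.

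The inhibitors were distributed unlike the cytokines. Nfkbia was present in every class, from 180 ± 19.98 CPM in NK-like cells of DOCA-salt mice to 1364 ± 674 CPM in ILC2-like cells of sham mice (SD, n = 4), leaving aside 6 mast and basophil-like cells of sham mice at 4125 ± 2600 CPM. ILC2-like cells, tissue-resident innate lymphocytes, were also the highest class for Tnfaip3, apart from the 6 mast and basophil-like cells of sham mice. Its level there was 554.2, 139.9, 128.3 and 117.3 CPM in sham mice and 500.3, 166.5, 167.3 and 171.7 CPM in DOCA-salt hearts, with mouse 1 far above the other mice in both groups. These rest on 33 UMIs in 30 sham cells and 55 UMIs in 54 DOCA-salt cells. Sparse classes lay next in sham mice, with means of 146 ± 206 CPM in 8 migratory DC-like cells (SD, n = 2) and 145 ± 217 CPM in 26 classical monocyte-like cells (SD, n = 4). Lymphocytes of the NK-like and T-like classes had Tnfaip3 at 69.6 ± 13.4 and 52.9 ± 9.45 CPM and at 71.5 ± 16.6 and 58.6 ± 7.08 CPM, above macrophage-like cells at 35.4 ± 35.2 and 25.3 ± 13.6 CPM. Neutrophil-like cells had no Tnfaip3 UMI in 13 sham cells and 9 UMIs in 154 DOCA-salt cells.

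Within the neutrophil-like class no gene passed a test between groups. The class was too small to fit, so the mean CPM of 8 of the 10 genes was compared by exact permutation of the mouse labels (two-sided, 4 mice against 4), whose smallest possible p is 0.0286. Adjusted over the 8 genes, a gene that alone reaches this permutation p gets 0.229. A single gene could therefore not pass, and the lack of a pass does not show that levels were equal. Il1b averaged 11020 ± 2711 and 9541 ± 1178 CPM (SD, n = 4 each; exact permutation p = 0.4, adjusted p = 0.686), and the groups overlapped. Neutrophil-like cells themselves were 0.321% ± 0.268 of cells in sham and 2.65% ± 1.65 in DOCA-salt mice (SD, n = 4). By mouse they were 0.718%, 0.25%, 0.16% and 0.156% in sham and 0.552%, 2.86%, 4.58% and 2.6% in DOCA-salt. The groups overlapped, as DOCA-salt mouse 1 lay below sham mouse 1, and the shares were not tested. Il1r2, the decoy receptor, was at 0, 189.5, 0 and 151.4 CPM in sham mice and 296.2, 364.9, 355.8 and 411.2 CPM in DOCA-salt hearts. Every DOCA-salt mouse lay above every sham mouse, but the sham values rest on 2 UMIs in 13 cells (exact permutation p = 0.0286, adjusted p = 0.229 over the 8 genes). The other 6 genes had adjusted p of 0.686 to 0.914 by the exact permutation test. Cxcl2 varied widely between mice, with values of 1950, 568.4, 0 and 2726 CPM in sham hearts and 2962, 660.8, 2847 and 892.5 CPM in DOCA-salt hearts.

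The share of all Il1b UMIs that came from neutrophil-like cells differed between the libraries. They gave 289 of 841 Il1b UMIs in sham cells (34.4%, 95% Clopper-Pearson interval 31.2 to 37.7) and 3044 of 4515 in DOCA-salt cells (67.4%, 66.0 to 68.8). These intervals cover counting error only and treat each UMI as an independent draw, although the 289 sham UMIs came from 13 cells. They do not measure the spread between mice. The shares are of pooled cells and were not alike in every mouse. In DOCA-salt mouse 1, Il1b was at 107.5 CPM over all leukocytes and still at 76.6 CPM without neutrophil-like cells. Other classes thus gave most of it in that mouse. Macrophage-like cells gave 39.1% and 12.6% of the Il1b UMIs, nonclassical monocyte-like cells 13.2% and 5.18%, and classical monocyte-like cells 3.09% and 7.71%. With every cell thinned to 1500 UMIs, the neutrophil-like shares of Il1b were 44.3% and 82.3%. The same class gave 17.5% and 37.9% of Cxcl2 UMIs, 12.5% and 57.4% of Il1r2 UMIs and 73.9% and 80.9% of Ptgs2 UMIs. Cxcl2 UMIs came mostly from macrophage-like cells, at 75.0% in sham and 54.8% in DOCA-salt.

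**Figure D2:**
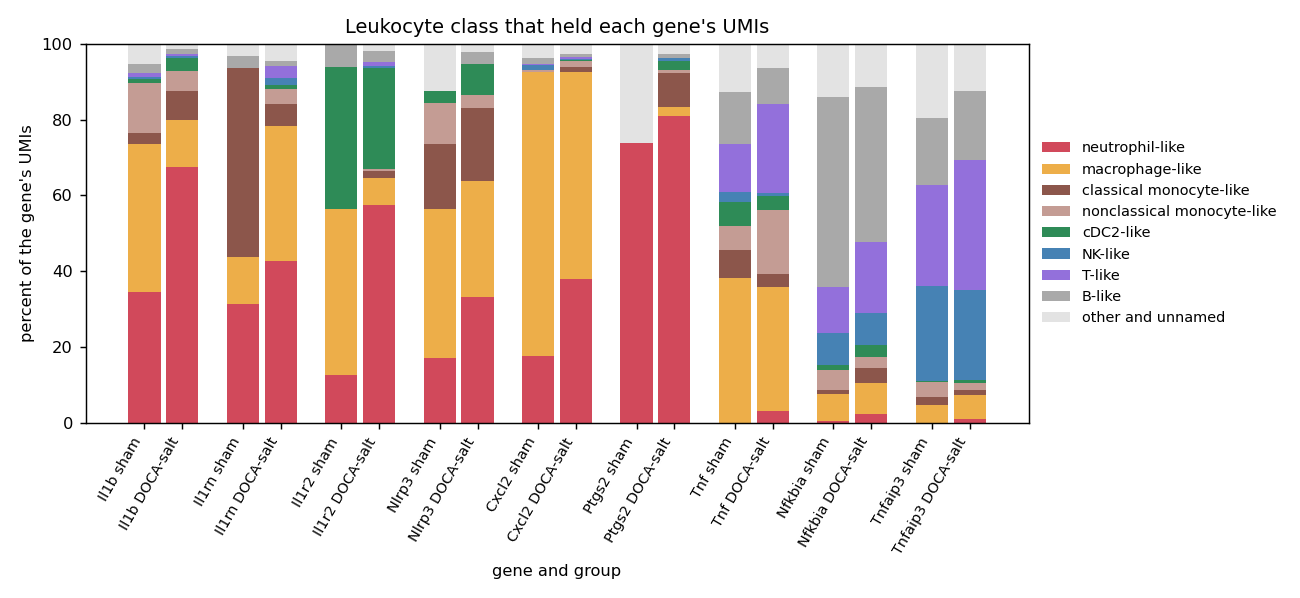
Share of each gene's UMIs that came from each leukocyte class, in percent, for sham and DOCA-salt cells, with the cells of a group pooled. Neutrophil-like cells gave 34.4% of Il1b UMIs in sham and 67.4% in DOCA-salt, whereas B-like and T-like cells gave most of Nfkbia.

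Summed over all leukocytes of a mouse, 3 of the 10 genes were higher in DOCA-salt hearts. These sums were added after the per-class values had been seen, and in them a larger number of cells of a type and more RNA per cell cannot be told apart. Il1b was at 100.8, 56.26, 87.54 and 44.52 CPM in sham mice and 107.5, 160.9, 375.8 and 177.8 CPM in DOCA-salt hearts, so every DOCA-salt mouse was above every sham mouse, DOCA-salt mouse 1 by the least. Il1b rose by 1.504 on the log2 scale (SE 0.38; edgeR adjusted p = 0.0464). Il1r2 was at 1.39, 1.84, 0 and 1.23 CPM against 8.95, 6.95, 10.3 and 6.58 CPM and rose by 2.63 (SE 0.38; edgeR adjusted p = 0.00448). Nlrp3, the inflammasome sensor, was at 6.26, 5.52, 3.93 and 4.43 CPM against 9.39, 8.91, 9.60 and 7.56 CPM and rose by 0.77 (SE 0.20; edgeR adjusted p = 0.0490). The edgeR fit tested 9 of the 10 genes (all but Il1a) among 10780 genes, of which 5.25% were called. DESeq2 called 5 of the 10, adding Il1rn, Nfkbia and Ptgs2 and losing Nlrp3. The Nlrp3 call was lost when any 1 mouse was left out, and the Il1b call when any mouse but DOCA-salt mouse 1 was.

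With neutrophil-like cells left out of the sums, none of the 10 genes passed. Il1b was then at 48.5, 45.3, 71.9 and 27.8 CPM in sham mice and 76.6, 32.4, 63.8 and 49.6 CPM in DOCA-salt hearts, and the groups overlapped fully. The log2 difference of Il1b was 0.23 (SE 0.30; edgeR adjusted p = 0.768) without these cells, and that of Nlrp3 was 0.40 (SE 0.28; adjusted p = 0.514). Il1r2 was too low to be tested without them, at 0.990 ± 0.705 and 2.65 ± 3.58 CPM (SD, n = 4). Of 10740 genes tested in this sum 4.71% were called. Among the 7 of the 10 genes tested, 2 had an unadjusted p under 0.05, and DESeq2 called 1, Nfkbia. That gene, at 423 ± 21.2 and 350 ± 24.3 CPM, differed by -0.29 (SE 0.08; edgeR adjusted p = 0.0585).

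Within single classes, the clearest difference was lower Nfkbia in nonclassical monocyte-like cells, the patrolling monocytes. Nfkbia was at 720.6, 761.6, 748.9 and 1211 CPM in the sham mice and 429.5, 564.5, 483.3 and 496.2 CPM in the DOCA-salt mice. Every DOCA-salt mouse lay below every sham mouse, and sham mouse 4 stood above the rest. Nfkbia fell by 0.76 on the log2 scale (SE 0.18; edgeR adjusted p = 0.0194), and it was the 1 gene called of the 2 of the 10 that were tested there, where 1.83% of 1696 genes were called. DESeq2 called it as well. The call was lost without sham mouse 4 (-0.57, edgeR adjusted p = 0.118), without DOCA-salt mouse 4 (adjusted p = 0.0583) and when the libraries were clustered separately (-0.58, adjusted p = 0.175). Markers of other cell types moved in the same cells. The summed level of 8 classical monocyte markers was 1198 to 1605 CPM in sham and 1868 to 3594 CPM in DOCA-salt mice, and that of 8 NK markers, 3 of them detected, 0 to 17.9 and 19.98 to 74.4 CPM. The 13 macrophage markers (12 detected) were at 3347 to 4489 and 4197 to 7225 CPM, with overlapping groups. Their part in the Nfkbia values was not tested. With every cell thinned to 1500 UMIs, 62.7% of sham and 49.1% of DOCA-salt nonclassical monocyte-like cells had an Nfkbia UMI, leaving out shallower cells (83 and 110 cells stayed), against 77.3% and 71.9% unthinned. The other gene tested, Il1b, was at 538.3, 170.2, 168.1 and 348.6 CPM against 249.7, 564.5, 681.6 and 332.6 CPM, with overlapping groups and a log2 difference of 0.51 (SE 0.30; adjusted p = 0.494). Tnf in the same cells was at 26.1, 17.9, 0 and 36.7 CPM in sham mice and at 49.95, 384.6, 37.2 and 42.2 CPM in DOCA-salt hearts, and 35 of the 62 Tnf UMIs of DOCA-salt mouse 2 were in 1 cell.

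**Figure D3:**
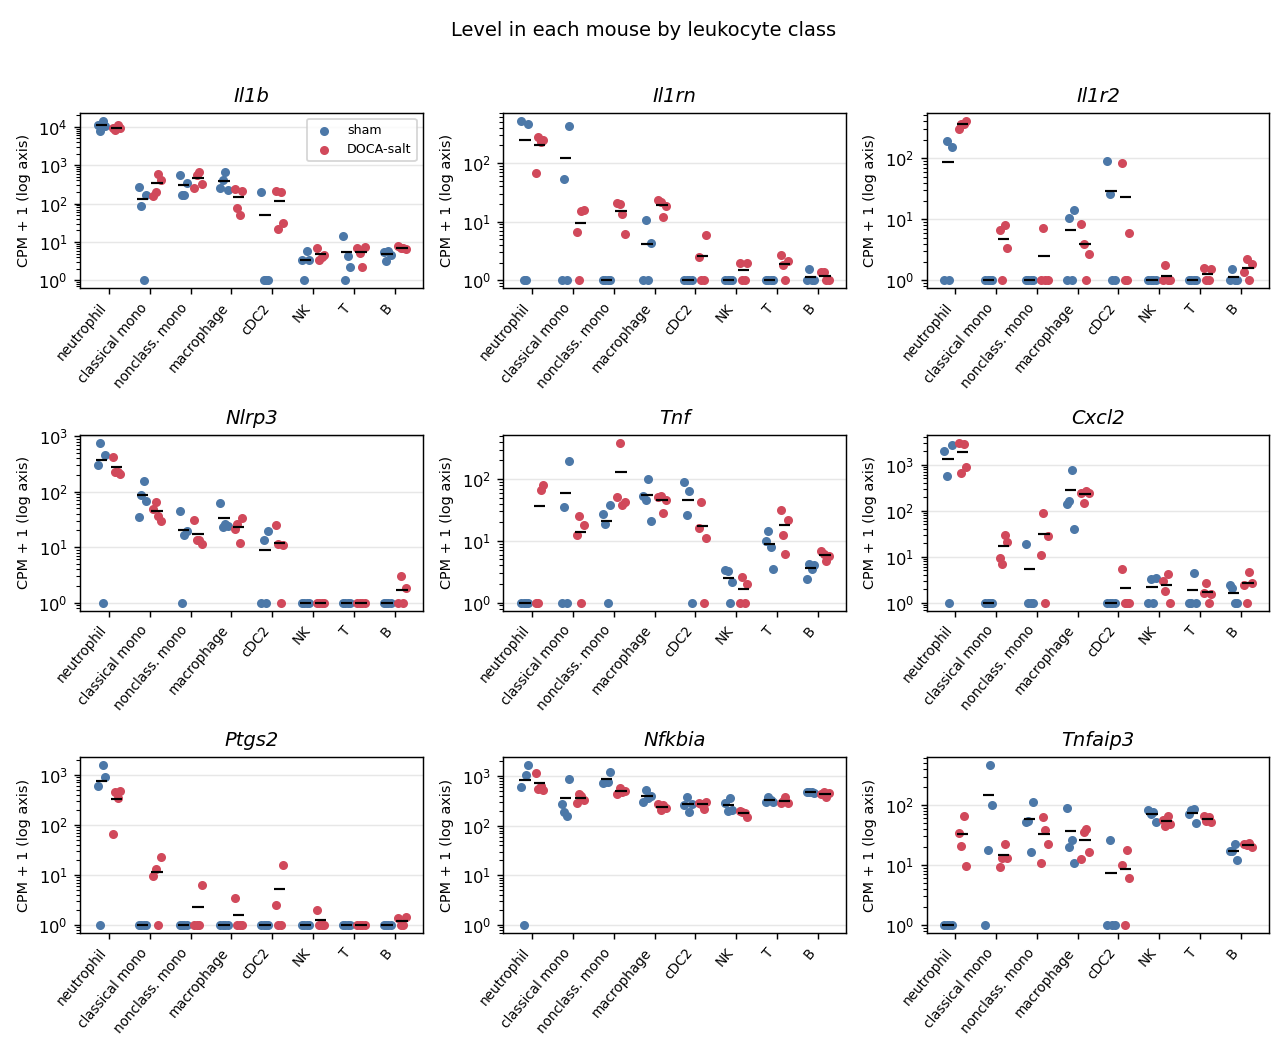
Levels of 9 of the genes (all but Il1a) per mouse in 8 leukocyte classes, on a log axis of CPM + 1. Points are mice with at least 1 cell, and black lines are group means. Nfkbia of nonclassical monocyte-like and macrophage-like cells is lower in every DOCA-salt mouse than in every sham mouse.

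In macrophage-like cells none of the 4 genes tested (Il1b, Tnf, Nfkbia and Cxcl2) passed, where 0.316% of 4433 genes were called. By unadjusted p under 0.05 there were 2, Il1b and Nfkbia, and DESeq2 called 1, Nfkbia. Nfkbia was at 305.8, 527.2, 367.4 and 398.3 CPM in sham mice and 274.9, 205.5, 259.6 and 228.0 CPM in DOCA-salt hearts. All DOCA-salt mice were below all sham mice, with a log2 difference of -0.77 (SE 0.18; edgeR adjusted p = 0.111). Il1b was at 253.4, 408.2, 660.1 and 222.4 CPM against 237.5, 74.9, 49.7 and 212.4 CPM, so that the highest DOCA-salt mouse lay above the lowest sham mouse and the other 3 lay below every sham mouse. Its log2 difference of -1.32 (SE 0.39; edgeR adjusted p = 0.208) did not pass, and it was -1.29 (adjusted p = 0.238) without macrophage-like cells that held an S100a8 or S100a9 UMI. It had the opposite sign to the difference of Il1b in the sum over all leukocytes. Beside these differences, 8 classical monocyte markers summed to 785 to 1625 CPM in sham and 1648 to 2072 CPM in DOCA-salt macrophage-like cells, and 5 erythroid markers to 32.1 to 52.4 and 3.68 to 19.1 CPM. The 7 cDC2 markers were at 1026 to 1608 and 340 to 1064 CPM, with a slight overlap. All of these markers were detected, and their part in the Il1b and Nfkbia values was not tested.

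In some mice, much of the macrophage Il1b and Cxcl2 sat in single cells. The richest macrophage-like cell held 10 of 29, 78 of 127, 28 of 106 and 42 of 67 Il1b UMIs in the sham mice. In the DOCA-salt mice it held 38 of 387, 7 of 51, 2 of 9 and 62 of 123. For Cxcl2 these were 12 of 16, 23 of 51, 100 of 122 and 7 of 12 UMIs in sham mice. They were 84 of 397, 35 of 99, 42 of 49 and 56 of 142 in DOCA-salt mice. With the richest cell of each mouse left out, a setting added after these values had been seen, mean Il1b was 230 CPM in sham hearts and 107 CPM in DOCA-salt hearts, and the log2 difference was -0.88 (edgeR adjusted p = 0.620). Cxcl2 fared differently. It was at 139.8, 163.9, 759.7 and 39.8 CPM in sham hearts and 243.6, 145.3, 270.7 and 245.3 CPM in DOCA-salt hearts, with a log2 difference of -0.26 (SE 0.53; edgeR adjusted p = 0.955). Without sham mouse 3 it was 1.002 (adjusted p = 0.551). Without the richest cell of each mouse the means of Cxcl2 were 72.2 and 120 CPM and the log2 difference was 0.89 (adjusted p = 0.568), the opposite direction. The setting removes 1 cell whatever their number, which was 36 to 103 in sham and 58 to 305 in DOCA-salt mice. It thus trims the groups unequally, and the part of this in the shifts of Il1b and Cxcl2 was not tested. Nfkbia was less concentrated, and its difference stayed at -0.77 (adjusted p = 0.0824), with means of 354 and 215 CPM. Il1rn was too low to be fitted, at 0, 9.64, 0 and 3.32 CPM in sham hearts and 22.7, 20.6, 11.1 and 17.3 CPM in DOCA-salt hearts, where every DOCA-salt mouse was above every sham mouse on 4 and 63 UMIs.

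Macrophage-like cells with a Cxcl2 UMI held Il1b more often than the class as a whole. In macrophage-like cells of sham mice, 11 of the 25 cells with a Cxcl2 UMI also had an Il1b UMI (44.0%), against 59 of 291 cells overall (20.3%). In DOCA-salt mice it was 19 of 56 (33.9%), against 16.8% overall. Not every pair of genes behaved so. In classical monocyte-like cells of DOCA-salt mice, 13 of the 38 cells with an Nlrp3 UMI had Il1b (34.2%), against 35.3% overall. In those of sham mice it was 1 of 8 (12.5%), against 26.9%. The cells with and without Il1b were not matched for depth.

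Macrophage-like cells formed 7 clusters, and the genes were unevenly spread over them. The clusters were led by Mrc1 (63 sham and 170 DOCA-salt cells), Folr2 (50 and 127), Tnip3 (10 and 161), Mmp13 (84 and 81), Egr1 (57 and 52), Lyve1 (17 and 50) and Cxcl10 (10 and 43). Resident-type cells led by Lyve1 had almost no Il1b, with 0 UMIs in 17 sham cells and 2 UMIs in 50 DOCA-salt cells. By means over mice, Il1b was highest in the clusters led by Tnip3 and Egr1. In the former it was at 1178 ± 1666 CPM in sham (SD, n = 2; 88 UMIs in 3 of 10 cells) and 376 ± 529 CPM in DOCA-salt mice (SD, n = 4). With DOCA-salt cells pooled, the cluster led by Cxcl10 was highest instead, at 393 CPM against 288 and 197 CPM in those led by Tnip3 and Egr1. In the cluster led by Egr1, an early response transcription factor, Il1b was at 705 ± 914 and 182 ± 133 CPM, Cxcl2 at 1057 ± 1223 and 589 ± 409 CPM and Nfkbia at 804 ± 459 and 502 ± 132 CPM (SD, n = 4). Cxcl2, with Atf3 and Hspa1a, was among the genes that define this cluster, so its level there is no finding, and the listed genes took part in the clustering. The cluster led by Tnip3, itself an NF-kB inhibitor, came mostly from DOCA-salt mouse 1.

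Of the 4 clusters large enough for a fit, none called any of the 10 genes. In the cluster led by Mrc1, where 0.452% of 1328 genes were called, Nfkbia was the 1 gene tested. Its mean was 322 ± 148 CPM in sham hearts and 159 ± 37.6 CPM in DOCA-salt hearts, with a log2 difference of -1.16 (SE 0.34; edgeR adjusted p = 0.198). In the cluster led by Mmp13, where 0.254% of 1573 genes were called, Il1b averaged 344 ± 226 and 88.1 ± 81.6 CPM (log2 difference -1.54, SE 0.49; edgeR adjusted p = 0.228). Nfkbia there was at 314 ± 134 and 116 ± 90.4 CPM (-0.88, SE 0.31; adjusted p = 0.324). In the cluster led by Egr1 0.195% of 514 genes were called, and Cxcl2 and Nfkbia differed by -0.89 (SE 0.72; edgeR adjusted p = 0.664) and -0.79 (SE 0.37; adjusted p = 0.399). In the cluster led by Folr2 none of the 10 was high enough to be tested, and edgeR called 0.0% of 386 genes, while DESeq2 called 3, and 41 had an unadjusted p under 0.05. DESeq2 called none of the 10 genes in any of these clusters. Mice with under 5 cells in a cluster were left out, which left 3 sham mice for Mrc1 and 3 DOCA-salt mice for Folr2 and Mmp13.

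Clustering the same cells without the listed genes, a setting added after the first clusters had been seen, gave 6 macrophage-like clusters. Pooled Nfkbia was lower in DOCA-salt in all 6 of them. In the cluster led by Lyve1 it was 510 against 207 CPM, and in that led by Mmp13 396 against 243 CPM. Pooled Il1b was lower in DOCA-salt in 5 of the 6, for example 489 against 87.0 CPM in the cluster led by Mmp13, and higher in the cluster led by Lyve1 (36.1 against 70.1 CPM). These are pooled values with no test.

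**Figure D4:**
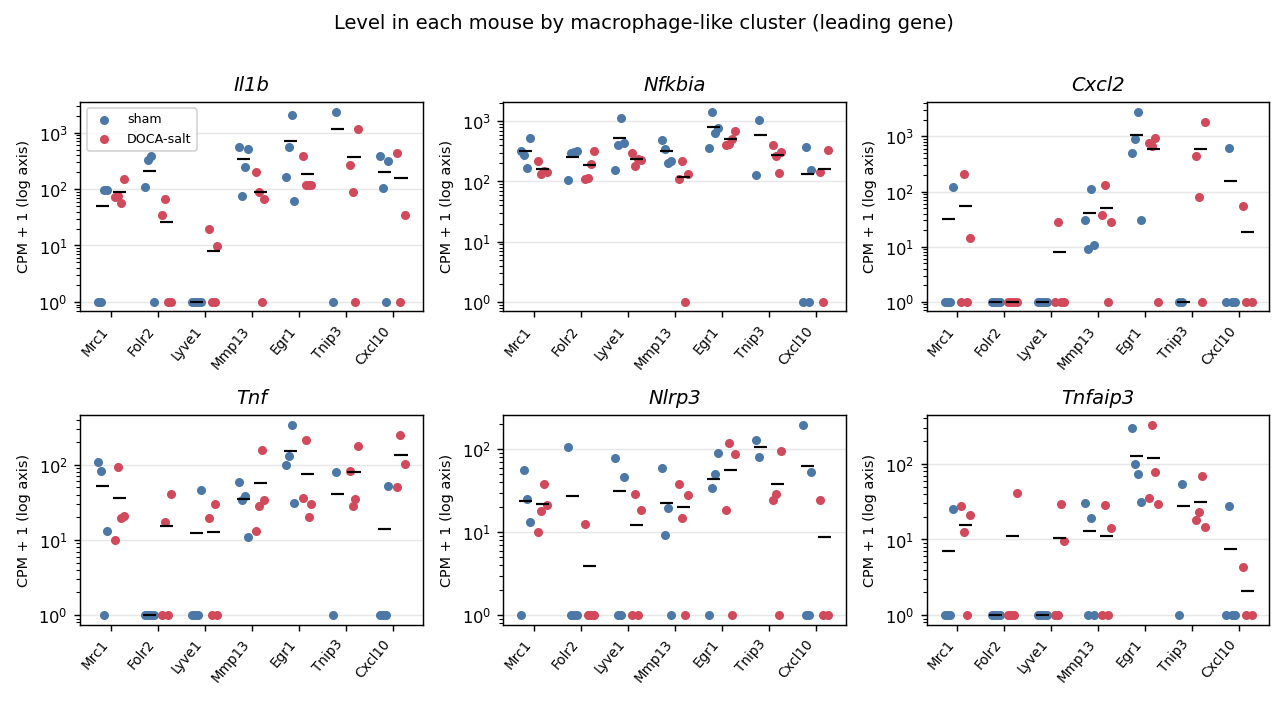
Levels of Il1b, Nfkbia, Cxcl2, Tnf, Nlrp3 and Tnfaip3 per mouse in the 7 macrophage-like clusters, each named by its leading gene, on a log axis of CPM + 1, for sham and DOCA-salt. Points are mice with at least 1 cell and black lines are means, and Il1b is near 0 in the cluster led by Lyve1 and highest in single mice of the clusters led by Tnip3 and Egr1.

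NK-like cells were measured deeply, and the only genes of the set high enough to be fitted there were the inhibitors. Nfkbia was at 291.7, 193.5, 365.0 and 202.3 CPM in sham mice and 196.5, 189.6, 182.8 and 151.3 CPM in DOCA-salt hearts, and the groups overlapped slightly. Its log2 difference was -0.51 (SE 0.14; edgeR adjusted p = 0.0773). Tnfaip3, at 69.6 ± 13.4 and 52.9 ± 9.45 CPM, differed by -0.44 (SE 0.18; edgeR adjusted p = 0.402). Neither passed, where 0.995% of 6531 genes were called, both had an unadjusted p under 0.05, and DESeq2 called neither. Nfkbia was called there without sham mouse 2, without sham mouse 4, at a Leiden resolution of 0.5, with the libraries clustered separately and without a filter on low counts.

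In the other lymphocytes the same 2 inhibitors were the only genes of the set high enough to be fitted. In T-like cells, where 0.387% of 6726 genes were called, Nfkbia differed by -0.01 (SE 0.13) and Tnfaip3 by -0.22 (SE 0.18; edgeR adjusted p = 0.842). In B-like cells, where 1.51% of 8571 genes were called, Nfkbia was at 470 ± 7.32 and 437 ± 41.1 CPM (log2 difference -0.09, SE 0.08; edgeR adjusted p = 0.750). Tnfaip3 was at 16.02 ± 4.10 and 20.7 ± 1.16 CPM (0.43, SE 0.19; adjusted p = 0.354), with an unadjusted p under 0.05. No gene of the set passed in T-like or B-like cells by edgeR or DESeq2.

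In the remaining myeloid classes Il1b and Nfkbia were fitted, with 3 sham mice each, and neither passed by edgeR or DESeq2 or had an unadjusted p under 0.05. In classical monocyte-like cells, where 0.0855% of 2338 genes were called, Il1b was at 271.6, 85.6, 0 and 164.8 CPM in sham hearts and 159.9, 202.8, 603.6 and 420.0 CPM in DOCA-salt hearts (log2 difference 0.94, SE 0.55; edgeR adjusted p = 0.899). Nfkbia differed by -0.09 in these cells. In cDC2-like cells edgeR and DESeq2 called 0.0% of 1295 genes, although an unadjusted p under 0.05 was found for 66. Il1b there was at 200.4, 0, 0 and 0 CPM in sham hearts and 208.5, 20.4, 201.7 and 30.0 CPM in DOCA-salt hearts (1.17, SE 1.15; edgeR adjusted p = 0.951). Il1r2 was present in cDC2-like cells too, but 39 of the 55 UMIs of DOCA-salt mouse 1 were in 1 cell.

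**Figure D5:**
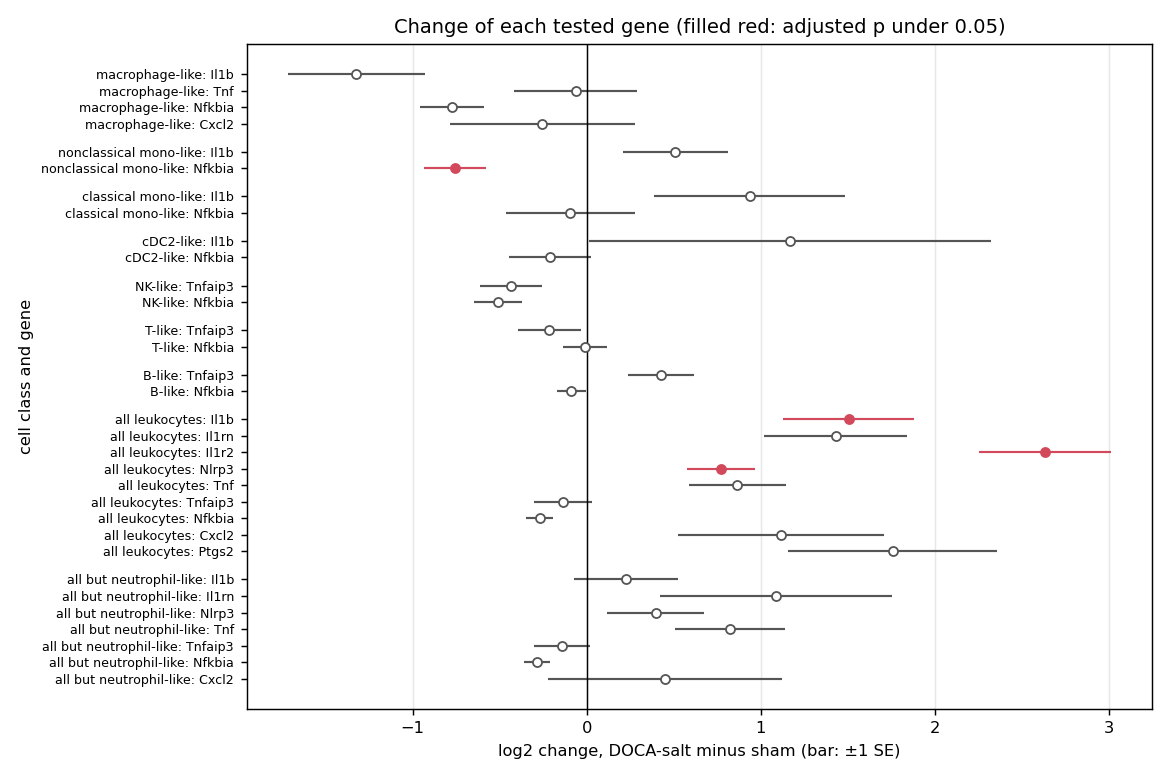
Log2 differences between DOCA-salt and sham for each gene and class that could be fitted with edgeR, with bars of ±1 SE. Filled red points passed an adjusted p of 0.05: Nfkbia in nonclassical monocyte-like cells, and Il1b, Il1r2 and Nlrp3 in the sum over all leukocytes.

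Whether a gene's difference between groups was itself different in macrophage-like cells and in another class, or in a pair of macrophage-like clusters, was tested directly, by exact permutation over mice of the within-mouse difference in log2(CPM + 20). Of 58 such tests, 24 between macrophage-like cells and another class and 34 between clusters, none passed, and the smallest adjusted p was 0.552. For Il1b, the difference between groups in macrophage-like cells minus that in NK-like cells was -1.49 (exact permutation p = 0.0286), and minus that in B-like cells -1.54 (exact permutation p = 0.0286). Both reached the smallest p that 4 mice against 4 allow. Adjusted over 58 tests, that p passes only where many tests reach it together. No single test could therefore pass on its own, and the lack of a pass does not show that classes changed alike. For Nfkbia, the macrophage-like difference minus that in T-like cells was -0.63 (exact permutation p = 0.0286), and minus that in NK-like cells -0.20 (exact permutation p = 0.686). Minus that in nonclassical monocyte-like cells it was 0.09 (exact permutation p = 0.743). The lower Nfkbia of nonclassical monocyte-like cells is thus not shown to be particular to them.

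Other genes of the pathway were read from lists. Of 24 subunits, kinases and inhibitors of NF-kB, 16 were tested in macrophage-like cells, 7 in nonclassical monocyte-like and 20 in NK-like cells, and none passed in any of these. Their median log2 difference was -0.06 in macrophage-like, -0.32 in nonclassical monocyte-like (6 of 7 negative, Nfkbia not being on the list) and -0.16 in NK-like cells, against 0.0039, 0.0013 and -0.0001 over all genes tested. In B-like cells, where 1.51% of all genes tested were called, 1 of 22 passed, the adaptor Traf1, which rose by 0.76 (edgeR adjusted p = 0.0187). Of 29 cytokines, chemokines and effectors that NF-kB induces, 16 were tested in macrophage-like cells and none passed, with a median of -0.08. The members with the largest differences there were Cxcl10 (1.94, edgeR adjusted p = 0.440), Plaur (1.30, adjusted p = 0.336) and Cd83 (-0.81, adjusted p = 0.189). In nonclassical monocyte-like cells, where 1.83% of all genes tested were called, 1 of 6 passed, the activation marker Cd83, which fell by 0.95 (edgeR adjusted p = 0.0277). In NK-like cells, where 0.995% of all genes tested were called, 1 of 11 passed, the chemokine Ccl5, which fell by 0.47 (edgeR adjusted p = 0.000784).

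Of 18 genes of the inflammasome and of IL-1 signalling, 12 were tested in macrophage-like cells and none passed, and Irak2, a kinase of the receptor complex, had the largest difference (-0.77, edgeR adjusted p = 0.336). Txnip, an arrestin-like protein that binds NLRP3, fell in NK-like cells by 0.45 (edgeR adjusted p = 0.00859) and in T-like cells by 0.68 (adjusted p = 0.0109), the only gene of that list to pass in either. In the sum over all leukocytes, where 5.25% of all genes were called, 2 of 17 genes of that list passed: the receptor adaptor Myd88 rose by 0.67 (edgeR adjusted p = 0.0148) and Txnip fell by 0.49 (adjusted p = 0.0182). Of the subunits, kinases and inhibitors 2 of 24 passed in that sum, and the subunit Rel and the inhibitor of apoptosis Birc3 fell by 0.53 and 0.49 (edgeR adjusted p = 0.0482 and 0.00716). Of the induced effectors 3 of 21 passed there, all higher, with a median of 0.30 over the 21 against 0.01 over all genes tested. The TNF receptor Tnfrsf1a rose by 0.52 (edgeR adjusted p = 0.0104), the adhesion molecule Icam1 by 0.37 (adjusted p = 0.0462) and the costimulatory ligand Tnfsf9 by 1.01 (adjusted p = 0.0220). Of 10 genes of prostaglandin and leukotriene synthesis and reception, none of 8 passed in macrophage-like cells, with Ltc4s at 0.75. In the sum over all leukocytes 2 of 10 passed, Alox5ap, which rose by 1.05 (edgeR adjusted p = 0.00448), and the prostaglandin receptor Ptger2, which rose by 1.29 (adjusted p = 0.0397).

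Genes known to respond to tissue handling or to corticosteroids were read beside Nfkbia in the same classes. Of 20 early response genes raised by tissue digestion, all were tested in macrophage-like cells and none passed (median -0.17). In nonclassical monocyte-like cells 1 of 17 passed, Dusp1, which is on the corticosteroid list as well and fell by 0.66 (edgeR adjusted p = 0.0220). In NK-like cells 2 of 17 passed, Jund and Junb, which fell by 0.53 and 0.55. Over all genes tested, 1.83% were called in nonclassical monocyte-like and 0.995% in NK-like cells. Of the corticosteroid-induced genes, 3 of 7 passed in macrophage-like cells, where 0.316% of all genes tested were called. All 3 were lower: Tsc22d3 fell by 1.14 (edgeR adjusted p = 0.0348), Ddit4 by 2.81 (adjusted p = 0.0117) and Per1 by 1.68 (adjusted p = 0.0204). In nonclassical monocyte-like cells 3 of 5 passed, Dusp1 again and Tsc22d3 and Ddit4, which fell by 1.16 and 2.18. In NK-like cells 2 of 6 passed, Tsc22d3 and Ddit4, which fell by 0.69 and 0.85. Il1r2 is on the corticosteroid list too. In the sum over all leukocytes it was the 1 gene of 11 tested that passed as higher, while 3 passed as lower. The part of either response in the Nfkbia values was not tested.

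The genes whose levels followed Il1b most closely were ranked by Spearman correlation of CPM over 53 points, each 1 class in 1 mouse, among 6103 genes. Those reported for Il1b are Tpd52 (0.882), Lpcat2 (0.865), Tlr13 (0.852) and Nfam1 (0.849). Those reported for Nfkbia are N4bp2l1 (0.838), Pde4b (0.808) and Gpcpd1 (0.744). The points of a group share a library and those of a mouse share an animal, so these values are a description.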

How the data were processed

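The study measured RNA and surface proteins of single CD45+ leukocytes sorted from the left ventricle of sham and DOCA-salt mice, 4 mice per group, with 1 pooled 5' library per group. The deposited matrices hold raw UMI counts per feature and barcode. Per the file headers, Cell Ranger 3.1.0 produced the counts. Seurat 4 and mm10 are named in the submitters' processing notes. The other deposited values are names of features and barcodes, which measure nothing. Counting parameters are not given in the sources used here.

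Barcodes were kept at 200 or more genes and a mitochondrial share of up to 10% (4254 of 4359 sham and 7351 of 7600 DOCA-salt). Scrublet, run per library through scanpy 1.11.5, removed 53 (1.25%) and 243 (3.31%) as doublets. A cell went to the mouse whose hashtag count was at least 2 times the next, and 136 (3.20%) and 321 (4.37%) cells could not be assigned. Cells were clustered on 2000 variable genes, 30 principal components and 15 neighbours with the Leiden method (leidenalg 0.10.2) at resolution 1.0, and clusters led by macrophage genes were clustered again, which gave 30 clusters. A class was named from at least 3 markers, each in 15% of the cluster's cells and raised by a log2 fold of 1.0. The way clusters were compared and the second clustering were set after the first clusters had been seen, and 5 clusters stayed unnamed.

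UMIs were summed per class and mouse, passed through filterByExpr and TMM scaling and tested by quasi-likelihood in edgeR 4.0.16 in R 4.3.3, with Benjamini-Hochberg adjustment over all genes of the class and a threshold of 0.05. Mice with under 5 cells of a class were left out, and a fit needed 3 mice a group. Neutrophil-like cells and differences between classes were compared by exact permutation tests (scipy 1.17.1). DESeq2 1.42.0 was an alternative, and the edgeR step was tested on simulated data. Shares have 95% Clopper-Pearson intervals. Precision is limited by depth: few UMIs of most of these genes were seen per mouse, and p-values measure the spread between the 4 mice of 1 pool.

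The 10 genes and all lists were chosen with earlier results of these data known. The 10 are always named. Of each list up to 4 genes past the threshold in a class, by largest change, and where none passed up to 3 with the largest difference, could be named, and the 5 genes most correlated with Il1b and with Nfkbia over classes and mice (at least 10 cells, and a mean of at least 20 CPM) were chosen, of which some are not reported here. Other genes named lead a cluster. Gene positions come from GENCODE M21 (GRCm38) by gene identifier, and promoter windows from RefSeq. Protein sequences were not used here.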

Additional observations from a re-analysis of the deposited data

Results flagged for a closer look

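Of 76 sets of 4 mice (1 gene, 1 class or macrophage-like cluster and 1 group, with at least 20 UMIs in the set), 14 held a mouse far from the other 3 by Dixon's criterion, where chance gives about 5%, or 1 in 20. DOCA-salt mouse 1 stood out in 5 of them. It had 381.3 CPM of Il1b in the macrophage-like cluster led by Egr1, against 114.8 to 117.1 CPM in the other mice, and 427.9 CPM of Nlrp3 in neutrophil-like cells, against 210.0 to 226.8 CPM. It also had 1152 CPM of Nfkbia in neutrophil-like cells (516.2 to 619.4 CPM in the others), 500.3 CPM of Tnfaip3 in ILC2-like cells (166.5 to 171.7 CPM) and 82.49 CPM of Il1r2 in cDC2-like cells (0 to 5.01 CPM).

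DOCA-salt mouse 2 stood out in 4. Its Tnf was at 384.6 CPM in nonclassical monocyte-like cells, against 37.18 to 49.95 CPM in the others, and at 91.74 CPM in the macrophage-like cluster led by Mrc1, against 8.93 to 20.03 CPM. In that cluster its Cxcl2 was at 206.4 CPM (0 to 13.35 CPM in the others), and in the cluster led by Egr1 its Tnfaip3 was at 327.9 CPM (28.76 to 76.51 CPM). DOCA-salt mouse 3 had 69.04 CPM of Tnfaip3 in the cluster led by Tnip3, a value of 2 UMIs.

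Among sham mice, mouse 1 had 554.2 CPM of Tnfaip3 in ILC2-like cells (117.3 to 139.9 CPM in the others), 61.16 CPM of Nlrp3 in macrophage-like cells (22.5 to 24.91 CPM) and 105.7 CPM of Nfkbia in the cluster led by Folr2, its lowest value and a single UMI, against 291.0 to 320.7 CPM. Sham mouse 4 had 1211 CPM of Nfkbia in nonclassical monocyte-like cells, against 720.6 to 761.6 CPM in the other sham mice, and the lower Nfkbia of DOCA-salt mice in that class was no longer called without it (edgeR adjusted p = 0.118).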

How the results depend on the processing

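No paired analysis was possible because a hashtag number names a mouse only inside its own pool. The cause of the shifts given here was not tested. Nfkbia in nonclassical monocyte-like cells (-0.76) was no longer called with the libraries clustered separately (-0.58) or without a filter on low counts (-0.65, edgeR adjusted p = 0.0710), and ranged from -0.84 to -0.57 with 1 mouse left out. The sum over all leukocytes gave Il1b 1.49 under a stricter cell filter (adjusted p = 0.0583) and 1.05 to 1.72 with 1 mouse left out. Nlrp3 was no longer called by DESeq2 (0.78), with cells thinned to 1500 UMIs (1.199), at a hashtag margin of 5 (0.69), without a filter (0.79) or under the stricter filter (0.72), and ranged from 0.68 to 0.88 with 1 mouse left out. Il1r2 kept its call in every alternative in which it was fitted, from 2.39 to 2.96, and was too low to be fitted with thinned cells. Of the 10 genes, the count called in that sum was 5 by DESeq2, 1 under the stricter filter and 1 to 3 with 1 mouse left out. Without neutrophil-like cells it was 1 (Nfkbia) by DESeq2, thinned and at the margin of 5, and 0 to 1 with 1 mouse left out. In NK-like cells it was 1 (Nfkbia) at Leiden resolution 0.5, with the libraries clustered separately and without a filter, and 0 to 1 with 1 mouse left out. In nonclassical monocyte-like cells it was 1 without a filter, Tnf (2.84, adjusted p = 7.9e-07) in place of Nfkbia, 0 with the libraries clustered separately and 0 to 1 with 1 mouse left out. In macrophage-like cells it was 1 by DESeq2 and with the libraries clustered separately (Nfkbia) and 1 without a filter (Il1b, -1.22, adjusted p = 1.6e-06). Without a filter it was also 1 in classical monocyte-like cells and in the clusters led by Egr1 and Mmp13, and 0 to 1 in the latter with 1 mouse left out (Il1b without sham mouse 2, -2.05).

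Counts of all genes called moved as well. Without a filter they went from 14 to 131 in macrophage-like, 65 to 126 in NK-like, 26 to 153 in T-like, 129 to 227 in B-like, 2 to 27 in classical monocyte-like and 0 to 24 in cDC2-like cells, and to 11, 25, 25 and 7 in the clusters led by Mrc1, Folr2, Mmp13 and Egr1. Thinned cells gave 6, 29, 15, 50 and 11 genes in macrophage-like, NK-like, T-like, B-like and nonclassical monocyte-like cells and 301 in all but neutrophil-like cells. With each library clustered on its own there were 63 in macrophage-like, 282 in B-like and 9 in cDC2-like cells. The stricter filter gave 1 in macrophage-like and 224 in nonclassical monocyte-like cells, and resolution 0.5 gave 203 in the latter. DESeq2 gave 5 in classical monocyte-like cells and 6 and 3 in the clusters led by Egr1 and Folr2. Macrophage-like clusters weighted equally gave 2, the margin of 5 gave 41 in NK-like cells, and a minimum of 1 cell gave 1 in classical monocyte-like cells and 11 in the cluster led by Mmp13, while a minimum of 10 cells gave 3 in that led by Egr1. With 1 mouse left out the count ran from 3 to 21 in macrophage-like, 31 to 68 in NK-like, 15 to 39 in nonclassical monocyte-like, 66 to 92 in B-like, 1 to 5 in classical monocyte-like cells, 302 to 563 in all leukocytes and 240 to 497 without neutrophil-like cells. The neutrophil-like share of Il1b UMIs was 26.8% to 44.3% in sham and 64.4% to 82.3% in DOCA-salt over the alternatives. Depth limits the rarer genes: Il1a, with 7 UMIs in all cells, passed the filter on low counts in no class, and without that filter it was fitted and not called.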

Other observations

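Single clusters held some of these genes as well. A cluster led by Spp1, with 4 sham and 11 DOCA-salt cells, had no Il1b UMI in sham cells and 32 in DOCA-salt cells, 4 of which held any. In a cluster led by Birc5, a gene of dividing cells, 2 of 10 sham cells and 0 of 28 DOCA-salt cells had an Il1b UMI. Cells of a T-like cluster led by Xcl1 (103 sham and 311 DOCA-salt cells), in which NK markers such as Ncr1 and Eomes were also raised, had Nfkbia at 188 ± 48.8 and 250 ± 72.2 CPM (SD, n = 4), a higher DOCA-salt mean where NK-like cells had a lower one, and the groups overlapped. These clusters were chosen after their values were seen.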
